A study of Mus musculus with 6 samples.

Results

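The genes described here encode the ADAM proteins, membrane-anchored proteins with a disintegrin and a metalloprotease domain. They were taken as the protein-coding genes of the count table whose symbol is Adam followed by a number, which leaves out the secreted Adamts proteases. The rule found 34 of the 54100 genes in the table, and the 32 with at least 10 counts over the 6 libraries were analysed. Of these, 21 are known as genes of sperm and their precursors (the sperm ADAM genes), 8 encode sheddases of somatic cells and 3 encode neural ADAMs without protease activity. The other two, Adam28 with 5 counts and Adam7, a gene of the epididymis, with 7 counts, fell under the minimum, and the member nearest above it was Adam33 with 67 counts. All 32 analysed genes also passed the filter on low counts of the test.

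RNA was extracted from cryosections of mouse testis, and 1 library was sequenced from each of 3 WT samples (genotype wild-type) and 3 samples with the genotype H3t deletion. H3t is a testis-specific variant of histone H3. The series describes the deletion testes as having disrupted spermatogenesis. Age, strain and the extent of the deletion are not stated in the labels, and each sample title carries a number of its own, so the 6 libraries were treated as separate samples.

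ADAM proteins are made with a prodomain, which in many active members keeps the protease silent until a convertase removes it. Active members cut other membrane proteins just outside the cell, a step called shedding, which releases growth factors and starts Notch signalling. Many sperm ADAMs have lost the catalytic residues and act instead as adhesion proteins, in complexes assembled in the endoplasmic reticulum of spermatids and carried to the sperm head, where Adam3 and its partners are needed for sperm to enter the oviduct and bind the egg coat.

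The catalytic zinc is held by 3 histidines, next to a glutamate that takes part in the cut. The bases that encode this site are shown for members on each side of that divide, because they separate the most abundant sperm ADAMs from the somatic sheddases. They are read 5′ to 3′ on the coding strand from the GENCODE M21 transcripts (GRCm38), 33 bases each, and capitals mark the codons of the 3 histidines and the glutamate wherever one of these residues stands at its place.
Adam10: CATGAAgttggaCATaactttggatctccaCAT
Adam17: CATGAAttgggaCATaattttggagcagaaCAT
Adam9: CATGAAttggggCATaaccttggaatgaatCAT
Adam24: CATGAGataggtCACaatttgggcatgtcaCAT
Adam1b: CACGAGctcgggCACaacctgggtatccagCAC
Adam29: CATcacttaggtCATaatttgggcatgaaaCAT
Adam4: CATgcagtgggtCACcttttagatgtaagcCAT
Adam2: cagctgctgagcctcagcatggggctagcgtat
Adam3: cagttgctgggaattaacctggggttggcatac
Adam5: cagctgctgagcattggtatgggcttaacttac
Adam32: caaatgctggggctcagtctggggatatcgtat
Adam23: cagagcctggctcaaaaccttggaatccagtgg
All lie within coding exons. On the minus strand are Adam17 at chr12:21336732-21336764, Adam9 at chr8:24990326-24990358, Adam1b at chr5:121501937-121501969, Adam29 at chr8:55872374-55872406, Adam4 at chr12:81420763-81420795 and Adam2 at chr14:66053841-66053873. Also on the minus strand are Adam3 at chr8:24707418-24707450, Adam5 at chr8:24806449-24806481 and Adam32 at chr8:24901501-24901533. On the plus strand are Adam24 at chr8:40680518-40680550, Adam23 at chr1:63547763-63547795 and Adam10, whose site is split by an intron and spans chr9:70754296-70761585.

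All 8 analysed sheddases carried the full site, as did 12 of the 21 sperm ADAM genes, and none of the 3 neural ADAM genes did. Adam29 and Adam4 kept 3 of the 4 residues, and Adam6a and Adam22 kept 1. Adam2, Adam3, Adam5, Adam18, Adam32, Adam6b, Adam11 and Adam23 kept 0 of the 4. The 5 sperm ADAM genes with several coding exons (Adam2, Adam3, Adam5, Adam18 and Adam32) all lacked the site. The other 16 sperm ADAM genes have a single coding exon, and 12 of those carried it.

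The libraries held 8037826 to 10702930 counts. H3f4, the current symbol of H3t, had 390, 571 and 356 counts in the WT libraries and 0 in every deletion library. The table labels H3f4 an unprocessed pseudogene, while RefSeq lists it as protein-coding. Of 17038 genes tested with edgeR's quasi-likelihood test, 84.5% passed an adjusted p of 0.05 in 1 direction or the other, with 46.1% lower and 38.4% higher in the deletion and a median log2 change of -0.19. Each share below, where no other scaling is named, is to be read against that background. The 12 spermatid marker genes were lower in 12 of 12 cases, and their summed level was 21092 to 22793 CPM (counts brought to a common library size by TMM scaling) in WT and 10.8 to 69.4 CPM in the deletion, with no marker at 0 over the group. All 12 spermatocyte markers were lower too, with sums of 7762 to 8262 and 433 to 507 CPM. Their log2 changes were uneven, from -0.631 to -9.655 with a median of -3.906, which the sums do not show. The 17 Sertoli cell markers, 9 Leydig cell markers and 9 macrophage markers were all higher, with sums rising from at most 1176, 534 and 116 CPM in any WT library to at least 4864, 4794 and 505 CPM in any deletion library. Of the other marker lists, 4 of 5 myoid and 4 of 6 endothelial markers were higher and none lower, and 8 of 11 tested spermatogonial markers were higher and 1 lower. All these marker calls are relative to the TMM scale. With the Sertoli markers brought to an equal level in every library, 8 of 9 Leydig markers were still higher, as were 4 of 9 macrophage markers with 1 lower, while 0 myoid and 0 endothelial markers were higher and 5 and 4 were lower, and 1 spermatogonial marker was higher and 6 were lower. Over all genes, that scaling gave 689 higher and 12980 lower of 17038 tested, the background for each count given with it. In testis sections, fewer cells of a type and less RNA per cell cannot be told apart.

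The sperm ADAM genes as a class were nearly gone from the deletion libraries. All 21 were called lower, beside 46.1% of all genes tested. In all 21 the deletion libraries lay below the WT libraries without overlap, as they did in 7961 of the 17038 genes tested. Over the deletion group, 5 of the 21 had 0 counts and another 5 had 1 to 3. Those genes met the count minimum and the filter through their WT counts alone, so lower was the only call open to them. The median log2 change of the 21 was -9.45, or -9.29 with the 5 genes at 0 counts set to their bound. 17 of the 21 were lower by at least 100-fold, a size reached by 9.19% of all genes tested. The spermatid marker sums given above fell over the same libraries, and their part in this result was not tested.

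The 4 most abundant members of the family in WT, Adam5, Adam32, Adam3 and Adam2, are sperm ADAM genes with several coding exons. Adam5, a testis ADAM of the sperm surface without the zinc site, had 13176, 16724 and 15334 counts in WT and 45, 36 and 14 in the deletion. Every deletion library was thus far below every WT library, with a log2 change of -9.45 ± 0.20 (SE, adjusted p = 2.44e-15). Adam32 had 10645, 14114 and 12085 counts in WT and 80, 29 and 14 in the deletion, a log2 change of -8.78 ± 0.28 (adjusted p = 1.28e-13). Adam3, also called cyritestin, is the ADAM whose loss in sperm is the usual readout of failed sperm surface assembly. It had 6020, 7999 and 6716 counts in WT and 33, 10 and 4 in the deletion, a log2 change of -9.32 ± 0.25 (adjusted p = 1.84e-14).

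Adam2, the beta subunit of the fertilin complex, had 2561, 3452 and 2768 counts in WT and 5, 4 and 1 in the deletion, a log2 change of -10.27 ± 0.18 (adjusted p = 1.17e-15). Adam18 had 684, 959 and 799 counts in WT and a single count in the deletion group, in replicate 1. The pooled ratio for Adam18 was 3578, with a 95% exact interval of 642 to 141379 that covers counting error only. These 5 genes made up 82.6% of the sperm ADAM counts in WT, and Adam5 (32.8%), Adam32 (26.7%) and Adam3 (15.0%) alone took most of that.

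Per kilobase of exon the same order held in WT. Adam5 stood at 653 ± 34.6 CPM per kb (SD, n = 3), Adam32 at 555 ± 10.8, Adam3 at 318 ± 2.85, Adam2 at 147 ± 2.15 and Adam1b at 81.1 ± 5.95 CPM per kb. None of these neighbours overlapped in their mean ± SD. Then came Adam24 at 56.4 ± 6.06, Adam18 at 46.5 ± 1.38 and Adam30 at 42.6 ± 3.32 CPM per kb, of which the last pair differed by less than the sum of their SDs. Below 20 CPM per kb, 13 genes followed, from Adam6a at 19.9 ± 2.70 down to Adam34l at 2.74 ± 0.69 CPM per kb, with many neighbours within an SD of each other.

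**Figure D1:**
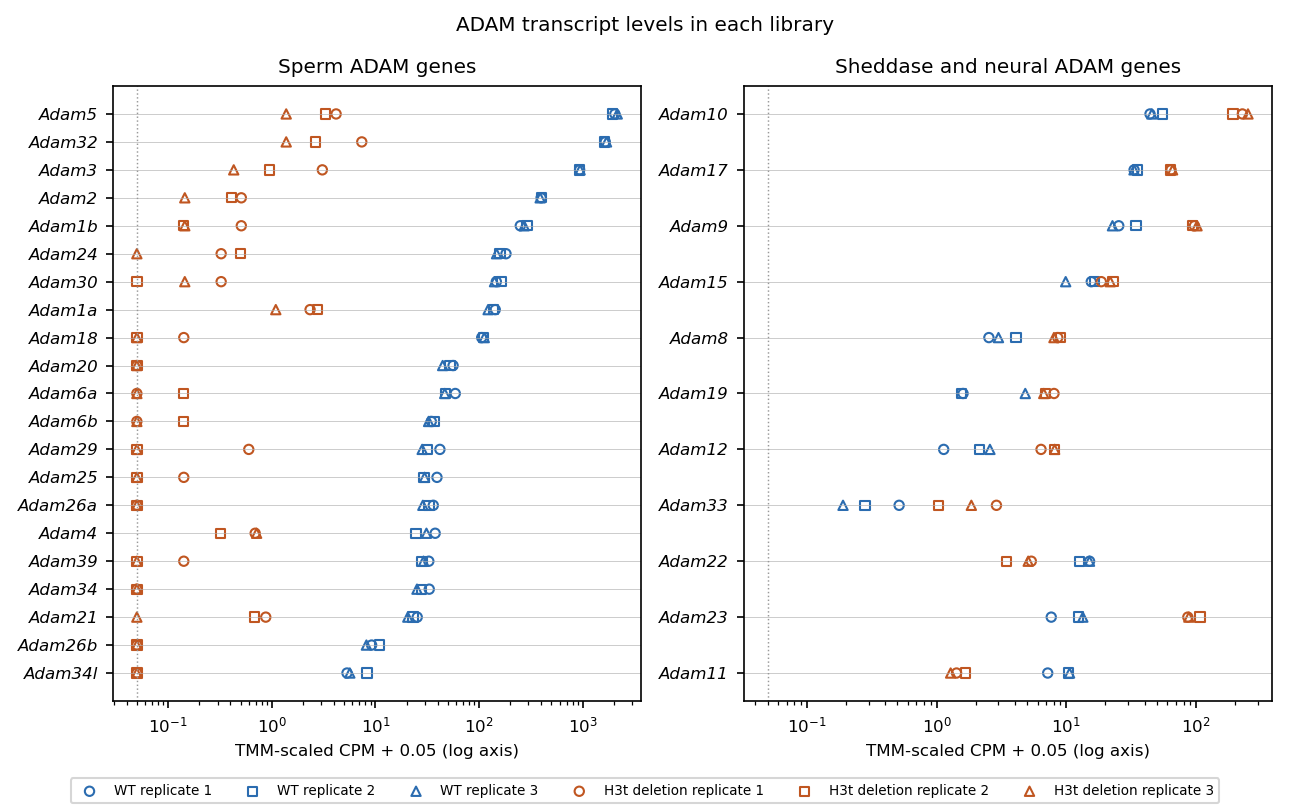
Level of each analysed ADAM gene in each of the 6 libraries, as TMM-scaled CPM plus 0.05 on a log axis, with WT in blue and H3t deletion in orange. The dotted line marks 0 counts. Every sperm ADAM gene lies far lower in the deletion libraries, whereas 9 of the 11 sheddase and neural genes lie higher at this scaling and Adam11 and Adam22 lie lower; scaled to an equal Sertoli marker level, 1 of the 11 is called higher.

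Among the genes with a single coding exon, Adam1b, the fertilin alpha subunit that pairs with Adam2 on sperm, had 1612, 2500 and 1940 counts in WT and 5, 1 and 1 in the deletion. Its log2 change was -10.21 ± 0.22 (SE, adjusted p = 2.28e-15). Adam24, also called testase 1, had 1173, 1371 and 1051 counts in WT and 3, 5 and 0 in the deletion. Adam30 had 946, 1412 and 1004 counts in WT and 3, 0 and 1 in the deletion. The log2 changes of these last were -9.29 ± 0.25 and -10.11 ± 0.25, within the range spanned by Adam32 and Adam2.

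5 sperm ADAM genes had 0 counts in all 3 deletion libraries, and all 5 have a single coding exon. Adam20 had 362, 452 and 317 counts in WT, which puts it at least 553-fold lower when a floor of 3 counts over the deletion group is used. Adam26a, with 233, 284 and 204 WT counts, was at least 353-fold lower, and Adam34, with 213, 239 and 179, at least 310-fold. Adam26b, with 59, 94 and 58 WT counts, was at least 102-fold lower and Adam34l at least 69.1-fold. The bound for Adam34l, the least abundant member with 34, 71 and 40 WT counts, was set by its depth.

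Another 4 single-exon genes kept 1 count in the deletion group. Adam6a fell from 380, 409 and 332 WT counts, a pooled ratio of 1642 with an exact 95% interval of 294 to 64931. Adam6b fell from 223, 317 and 232 counts, Adam25 from 253, 253 and 212, and Adam39 from 211, 243 and 207, with pooled ratios of 1131, 1052 and 968. The intervals of these 4 ratios overlapped, so the counts do not order them. Adam6a and Adam6b lie inside the immunoglobulin heavy chain locus, and Adam6 protein is needed for male fertility.

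The least lowered sperm ADAM genes were Adam21, Adam4 and Adam1a. Adam21 had 163, 199 and 146 counts in WT and 9, 7 and 0 in the deletion, a log2 change of -5.51 ± 0.41 (SE, adjusted p = 4.26e-09). Adam4 had 243, 212 and 221 counts in WT and 7, 3 and 7 in the deletion, a log2 change of -5.85 ± 0.31 (adjusted p = 6.08e-11). Together with Adam34l and its bound, these 3 genes were the 4 members not shown to be 100-fold lower. Adam4 and Adam21 are neighbours on chromosome 12, 136637 bases apart, and 13.2% of the 50-base words of Adam4 also occur in Gm4787, which fell from 3175 to 31 counts over the 3 libraries of each group.

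Adam1a encodes the alpha subunit that stays in the endoplasmic reticulum, where it is needed for Adam3 to reach the sperm surface. It had 924, 1185 and 871 counts in WT and 25, 30 and 11 in the deletion, a log2 change of -6.04 ± 0.19 (SE, adjusted p = 1.18e-13). Its deletion counts are harder to assign than those of other members. The exons annotated to Adam1a overlap Mapkapk5 and Gm42878 on the same strand and Tmem116 on the opposite one, and 77.8% of its 50-base words occur in another gene. The table gives Mapkapk5 3 counts over the WT libraries and 24 over the deletion libraries, Gm42878 0 in all 6, and Tmem116 170 over the WT libraries and 17 over the deletion libraries. The part of these overlaps in the Adam1a counts was not tested.

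Adam29, which lost the glutamate of the zinc site, had 270, 274 and 201 counts in WT and 6, 0 and 0 in the deletion. Its log2 change was -7.42 ± 0.46 (SE, adjusted p = 4.06e-10), and all 6 deletion counts came from replicate 1. Without that library Adam29 was at 0 in the deletion and at least 245-fold lower, by the floor of 3 counts over the 2 libraries left. That library also held the highest CPM for 11 of the 16 sperm ADAM genes with any count in the deletion, against 4 for replicate 2 and 1 for replicate 3. The summed sperm ADAM level was 20.6, 11.4 and 5.04 CPM in deletion replicates 1, 2 and 3. The spermatid marker sums in those libraries were 69.4, 30.5 and 10.8 CPM, so both measures were highest in replicate 1 and lowest in replicate 3. In WT the sperm ADAM sum was 6264, 6113 and 6310 CPM.

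**Figure D2:**
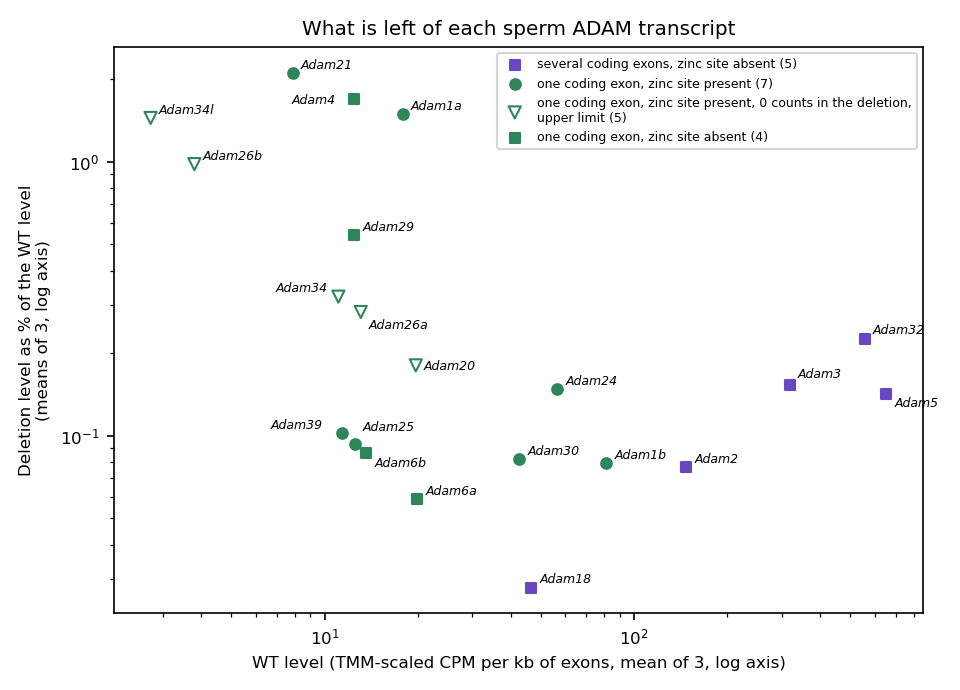
Level left in the deletion as a percent of the WT level (y, log axis) against the WT level per kb of exons (x, log axis) for the 21 sperm ADAM genes, means of 3 libraries per group. Colour gives the exon structure, shape the zinc site, and open triangles the upper limit for the 5 genes at 0 counts; Adam21, Adam4 and Adam1a sit highest among genes with counts, at 2.12%, 1.69% and 1.5%, and Adam18 lowest at 0.028%.

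Split by exon structure or by the zinc site, the sperm ADAM genes had close median changes. The 16 single-exon genes had a median log2 change of -9.48 (-8.79 with genes at 0 counts set to their bound), and the 5 genes with several coding exons a median of -9.45. The 12 genes with the zinc site had a median of -9.48 (-8.79 at the bound), and the 9 without it a median of -9.45. 12 of the 16 single-exon genes and 5 of the 5 others were at least 100-fold lower. These are descriptions of the members, and the difference between the classes was not tested.

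Several single-exon genes are close copies of each other, so their counts cannot be fully separated. Translated from the GENCODE coding sequences and aligned, Adam25 and Adam39 were 91.4% identical, Adam6a and Adam6b 89.8%, Adam26a and Adam26b 88.4% and Adam34 and Adam34l 87.5%. Adam1a and Adam1b were 72.4% identical and have the same 33 bases at the zinc site. By contrast, Adam10 and Adam17 were 27.7% identical and Adam9 and Adam32 35.1%. Between 22.4% and 36.7% of the 50-base words of the members of the Adam6, Adam20/25/39, Adam26 and Adam34 groups occur in another gene. How reads matching several places were counted is not stated. All members of these groups were called lower.

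Sperm ADAM genes are grouped along the genome, and 13 of the 21 lie on chromosome 8. The first group, on the minus strand, reaches from Adam18 at 24602246 through Adam3 and Adam5 to Adam32, whose highest coordinate is 24948804. Gaps of 2469, 1240 and 11770 bases part them. Adam9, a somatic sheddase on the same strand, has its lowest coordinate at 24949611. The 806 bases between Adam9 and Adam32 thus lie after the end of Adam9 and before the start of Adam32. The second group holds Adam24, Adam25, Adam20 and Adam39, and the third Adam26b, Adam26a, Adam34l and Adam34, with Adam29 on its own further along.

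Adam9 and Adam32, although next to each other, changed relative to one another. With TMM scaling their log2 changes were 1.82 and -8.78, but the direction of Adam9 rests on the scaling, since with the Sertoli markers at an equal level it was at -0.32 and not called. For each Adam32 count a WT library held 0.0153, 0.021 or 0.0133 Adam9 counts, and a deletion library held 13.2, 35.8 or 76.3. This ratio within a library needs no scaling between libraries. Its log2 value differed by 10.99 between the groups, with SDs of 0.34 in WT and 1.27 in the deletion, and the groups did not overlap. The exact two-sided permutation p was 0.1, the smallest that 3 against 3 libraries allow.

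The sequences before the transcription start also differed between the sperm and somatic members that could be matched. RefSeq promoters (GRCm38.p6, 250 bases before to 50 after the start) were matched for 17 of the 32 analysed members, 10 sperm and 7 somatic. All 10 sperm genes matched have a single coding exon. None of Adam2, Adam3, Adam5, Adam18 and Adam32, which made up 82.6% of the sperm ADAM counts in WT, was matched. The 120 bases before the start are shown for a pair of each class, on the plus strand, 5′ to 3′, with CpG dinucleotides in capitals, because CpG content was the clearest difference.
Adam10: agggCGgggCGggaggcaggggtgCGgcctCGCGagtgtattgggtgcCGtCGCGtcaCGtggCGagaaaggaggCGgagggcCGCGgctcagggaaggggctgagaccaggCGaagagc
Adam23: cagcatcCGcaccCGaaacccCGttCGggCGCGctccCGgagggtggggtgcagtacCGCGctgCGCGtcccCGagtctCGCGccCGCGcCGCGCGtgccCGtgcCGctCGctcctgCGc
Adam20: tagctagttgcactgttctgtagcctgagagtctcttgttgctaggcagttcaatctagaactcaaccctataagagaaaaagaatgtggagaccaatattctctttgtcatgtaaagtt
Adam25: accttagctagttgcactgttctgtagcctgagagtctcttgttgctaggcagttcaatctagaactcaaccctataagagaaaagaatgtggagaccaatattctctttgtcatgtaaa
They lie at chr9:70678862-70678981, chr1:63445771-63445890, chr8:40793153-40793272 and chr8:40752088-40752207, in that order. Adam10 has 14 CpG in this stretch, Adam23 has 23, and the sperm pair has 0. The Adam20 and Adam25 stretches share an identical run of 81 bases. These 2 paralogs were called lower, as was every other sperm ADAM gene, and the part of this run was not tested.

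Over the full 300 bases, the 10 sperm ADAM promoters held a median of 1 CpG (0 to 4), the 8 somatic ADAM promoters a median of 22 (5 to 32) and all 32851 promoters a median of 7. The GC content had medians of 39.5%, 65.8% and 52.7%. Motifs of 6 kinds were searched on both strands, and a match describes the letters alone. GGGCGG, the GC box, was in 5 of the 7 somatic genes and 0 of the 10 sperm genes, against 35.7% of all promoters. TATAAA, the TATA box, was in 3 of the 10 sperm genes and 0 of the somatic ones, against 13.6%. AACNGNC, a motif of MYB factors such as the spermatocyte regulator Mybl1, was in 6 sperm and 2 somatic genes, against 32.8%. TGACGTCA, the full cyclic AMP response element bound by the spermatid factor Crem, was in 0 of either class (1.79% of all promoters), and its core TGACG, which lies within it, was in 0 sperm and 1 somatic gene (20.8%). GTTGCC, a core of RFX factors, was in 1 sperm and 0 somatic genes (12.5%).

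The change in the 2 classes turned the make-up of the ADAM transcripts around. Sperm ADAM genes took 97.6%, 97.1% and 97.5% of the ADAM counts in the WT libraries and 3.77%, 2.20% and 0.894% in the deletion libraries. These shares come from counts within a library and need no scaling between libraries, and the groups lay far apart. Per kb of exon the shares were 98.7% ± 0.178 and 3.95% ± 2.55 (SD, n = 3). The raw counts of sperm ADAM genes were 40385, 52763 and 44917 in WT and 224, 127 and 53 in the deletion. Those of the 11 somatic ADAM genes were 989, 1584 and 1142 in WT and 5719, 5650 and 5875 in the deletion. ADAM genes as a whole fell from 0.512% ± 0.0037 to 0.0678% ± 0.0030 of a library.

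**Figure D3:**
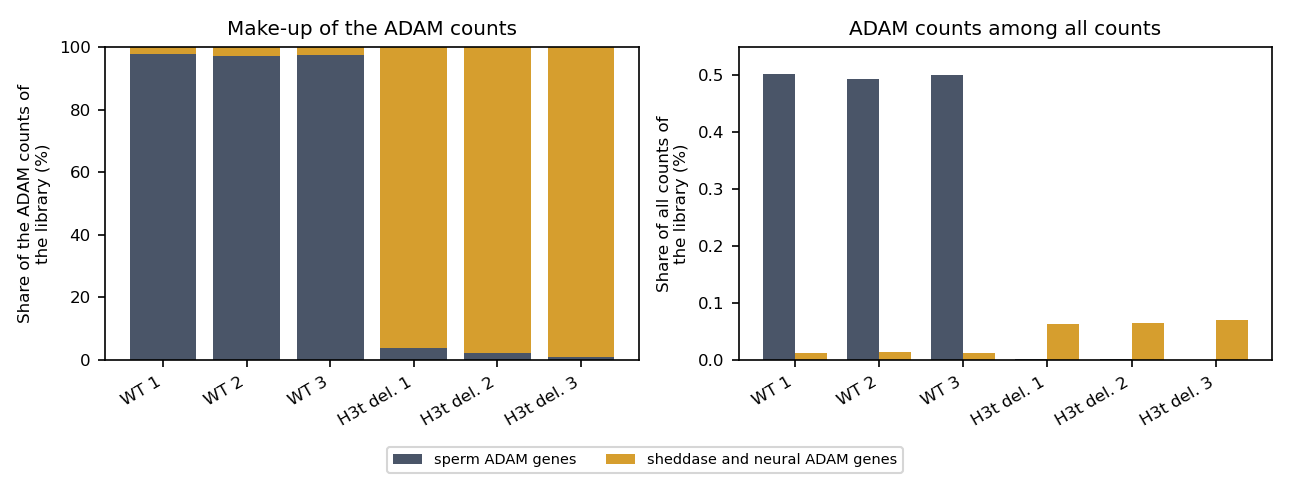
Left, share of each library's ADAM counts from the 21 sperm ADAM genes and from the 11 sheddase and neural genes, in percent. Right, the same 2 classes as a percent of all counts in the library; sperm ADAM genes take about 0.5% of a WT library and under 0.003% of a deletion library.

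The 8 somatic sheddases were all called higher in the deletion with TMM scaling, beside 38.4% of all genes tested. In all 8 the deletion libraries lay above the WT libraries, as they did in 6673 of the 17038 genes tested. The median log2 change of the 8 was 1.64. The direction rests on the scaling. As an alternative, the 17 Sertoli markers were brought to the same level in every library (Sertoli-level scaling). With it, 0 of the 8 were called higher and 3 were called lower, with a median of -0.51. Over the 17038 genes tested, 689 were higher and 12980 lower, and the median of all genes moved from -0.19 to -2.34. Each change below is therefore relative to the TMM scale where no other scaling is named. The Sertoli, Leydig and macrophage marker sums given above rose over the same libraries, and their part in these changes was not tested.

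Adam10, the principal sheddase of Notch receptors and of many adhesion proteins, was the most abundant somatic member. It had 44.1, 54.7 and 45.5 CPM in WT and 227, 192 and 251 CPM in the deletion. Every deletion library was above every WT library, with a log2 change of 2.21 ± 0.12 (SE, adjusted p = 8.25e-11), but with Sertoli-level scaling the change was 0.06. Adam9 had 25.3, 34.3 and 22.6 CPM in WT and 96.9, 93.6 and 101 CPM in the deletion, a log2 change of 1.82 ± 0.14 (adjusted p = 5.21e-09), against -0.32 with Sertoli-level scaling.

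Adam17, the TNF-alpha converting enzyme, which also releases ligands of the EGF receptor, changed less. It had 33.2, 35.1 and 33.2 CPM in WT and 64.0, 63.6 and 65.7 CPM in the deletion, a log2 change of 0.93 ± 0.11 (SE, adjusted p = 9.86e-07), and -1.23 with Sertoli-level scaling. Its exons overlap Iah1 on the opposite strand, which rose by 2.61 on the log2 scale. Whether strand was used in the counting is not stated, so the reads of the overlap cannot be assigned. The ratio of Adam10 to Adam17 counts, which needs no scaling, was 1.33, 1.56 and 1.37 in WT and 3.55, 3.02 and 3.81 in the deletion. The groups did not overlap, and the log2 ratio differed by 1.28, with SDs of 0.12 and 0.17 (exact two-sided permutation p = 0.1, the smallest possible).

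Of the less abundant sheddases, Adam33 rose most, by 2.73 ± 0.67 on the log2 scale (SE, adjusted p = 0.00142), from 3, 2 and 1 counts in WT to 31, 11 and 19 in the deletion. Adam12, known from muscle and mesenchyme, rose by 1.95 ± 0.35, from 7, 18 and 18 counts to 69, 89 and 85. Adam19, a sheddase of neuregulins, rose by 1.46 ± 0.40, from 10, 13 and 34 counts to 87, 76 and 70, and by 2.18 without WT replicate 3, which was the high one. Adam8, an ADAM of myeloid cells, rose by 1.41 ± 0.29, from 16, 35 and 21 counts to 93, 100 and 84. With Sertoli-level scaling Adam33 was at 0.64 and did not pass the test, and Adam12, Adam19 and Adam8 were at -0.18, -0.69 and -0.73.

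Adam15 changed least, from 15.5, 16.3 and 9.83 CPM in WT to 18.5, 22.9 and 21.8 CPM in the deletion. Its log2 change was 0.60 ± 0.20 (SE, adjusted p = 0.0122). Its call was lost with median-of-ratios scaling (0.43), with DESeq2 (0.43) and without WT replicate 3 (0.37). It was also lost at an adjusted p of 0.01 and in the edgeR test against 1.5-fold (adjusted p = 0.29). With Sertoli-level scaling its value was -1.56. 15.0% of its 50-base words are shared with the antisense gene 4731419I09Rik, which had 6 counts in WT and 19 in the deletion.

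Per kb of exon, the somatic members lay within the range of the less abundant sperm ADAMs in WT or below it. Adam10 stood at 9.79 ± 1.17 CPM per kb (SD, n = 3), Adam9 at 6.66 ± 1.49 and Adam17 at 4.73 ± 0.156, levels between those of Adam20 and Adam34l. In the deletion Adam10 was at 45.4 ± 6.0 CPM per kb, Adam9 at 23.7 ± 0.957 and Adam17 at 9.01 ± 0.159, so their order was kept and the gaps between them widened. The highest sperm ADAM level left in the deletion was that of Adam32, 1.26 ± 1.06 CPM per kb.

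**Figure D4:**
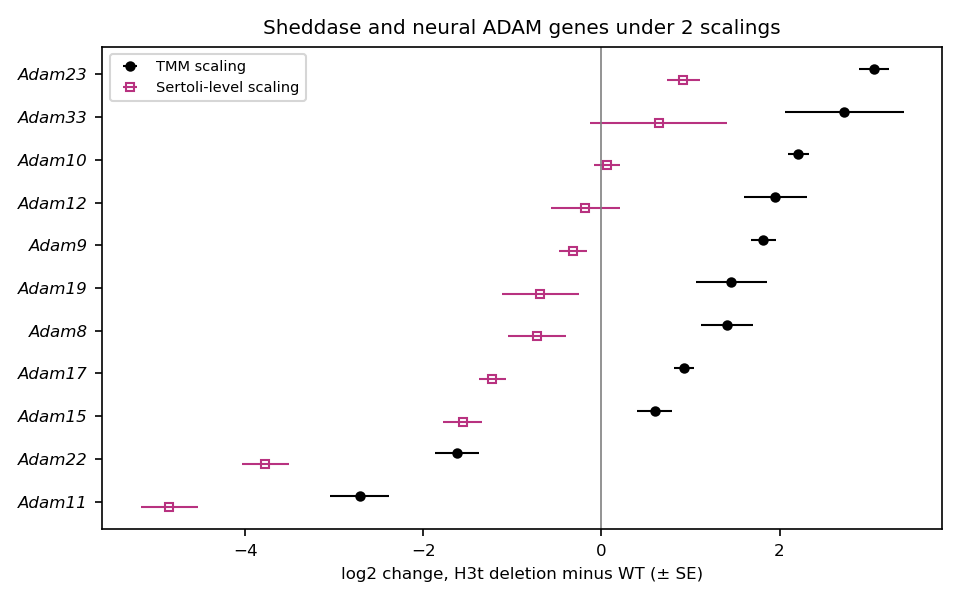
log2 change (H3t deletion minus WT, ± SE) of the 8 sheddase and 3 neural ADAM genes with TMM scaling (filled circles) and with libraries scaled to an equal Sertoli marker level (open squares). Adam23 lies above 0 and Adam22 and Adam11 below 0 under both, while the values of 6 sheddases change sign.

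The 3 neural ADAM genes, whose proteins bind secreted LGI proteins, for example at synapses, did not move together. Adam23 had 7.60, 12.4 and 13.3 CPM in WT and 86.2, 107 and 87.8 CPM in the deletion. Its log2 change was 3.06 ± 0.17 (SE, adjusted p = 1.17e-10), and it was the only one of the 11 somatic members called higher with Sertoli-level scaling as well, at 0.92 (adjusted p = 0.000183). Adam22 fell by 1.62 ± 0.24 on the log2 scale, from 15.0, 12.5 and 15.0 CPM in WT to 5.32, 3.42 and 5.03 CPM. Adam11 fell by 2.72 ± 0.33, from 7.14, 10.3 and 10.5 CPM to 1.38, 1.62 and 1.23 CPM. Both were called lower under every scaling tried. The ratio of Adam23 to Adam22 counts was 0.505, 0.991 and 0.888 in WT and 16.2, 31.3 and 17.4 in the deletion, a log2 difference of 4.76 with SDs of 0.52 in each group (exact two-sided permutation p = 0.1). Adam22 and Adam23 proteins were 48.9% identical. Of the LGI ligand genes, Lgi4 and Lgi3 passed the test among 3 tested, higher by 2.86 and 2.76, and Lgi2 did not pass. With Sertoli-level scaling both calls were lost (0.70 and 0.66), and of the 3 genes 0 were higher and 1 was lower.

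Genes that process sperm ADAMs moved largely with them. Of 14 genes known to act in the folding, modification or surface transport of sperm ADAMs, 13 were lower and 1 higher, with a median log2 change of -6.75. Clgn, a chaperone that fertilin dimers need, had 1897, 1927 and 1922 CPM in WT and 12.7, 9.10 and 8.83 CPM in the deletion, a log2 change of -7.55 ± 0.14 (SE, adjusted p = 1.17e-15). Pdilt, a disulfide isomerase homolog that works with Clgn on Adam3, changed by -9.04 ± 0.23, and Cmtm2b, needed for Adam3 on the sperm surface, by -9.05 ± 0.23. Ace, whose testis isoform is needed for the placing of Adam3, changed by -2.79 ± 0.10, from 562, 553 and 557 CPM to 87.4, 68.6 and 85.8 CPM. Ace also has a somatic isoform, and the gene counts do not separate them.

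The single riser was Tpst2, a tyrosine sulfotransferase, at 1.32 ± 0.35, which is named after its values were seen and was at -0.81 with Sertoli-level scaling. Calr3, a calreticulin of the testis endoplasmic reticulum, and Prss37, a serine protease homolog, were also picked with values known. Calr3 changed by -4.73 ± 0.17. Prss37 was at least 1335-fold lower, with 0 counts in all 3 deletion libraries.

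The convertases that remove prodomains from active ADAMs were 3 higher and 1 lower. Furin had 16.1, 14.9 and 17.7 CPM in WT and 135, 120 and 137 CPM in the deletion, a log2 change of 3.01 ± 0.12 (SE, adjusted p = 1.40e-12). Pcsk5 and Pcsk6 were higher by 2.30 and 0.99. Pcsk7 was lower by 0.49 on the log2 scale, with overlapping groups, and its sign turned with upper-quartile scaling (0.052) and with no scaling factor (0.15). With Sertoli-level scaling Furin stayed higher (0.85), Pcsk5 no longer passed (0.13) and Pcsk6 was lower (-1.14).

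TspanC8 tetraspanins escort Adam10 out of the endoplasmic reticulum and shape its substrate choice. Of 5 tested, 4 were higher and 1 lower. Tspan5 rose from 29.3, 27.5 and 30.3 CPM to 76.9, 71.6 and 74.4 CPM, a log2 change of 1.36 ± 0.11 (SE, adjusted p = 1.33e-08), and Tspan15, Tspan17 and Tspan14 rose by 2.73, 3.14 and 2.20. Tspan33, picked as the single faller, changed by -2.04 ± 0.35. With Sertoli-level scaling 1 of the 5, Tspan17, was called higher (1.0), and Tspan5 was at -0.80.

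The inactive rhomboids that carry Adam17 to the surface rose, whereas their cofactors fell. Rhbdf2 had 3.57, 1.85 and 1.97 CPM in WT and 34.7, 29.6 and 22.5 CPM in the deletion, a log2 change of 3.58 ± 0.27 (SE, adjusted p = 4.92e-09), and Rhbdf1 rose by 2.62. Frmd8, which stabilises the rhomboids at the surface, and Pacs2, a sorting protein for Adam17, changed by -1.25 and -1.38. With Sertoli-level scaling Rhbdf2 was still called higher (1.43), Rhbdf1 was not (0.49), and Frmd8 and Pacs2 stayed lower.

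All 4 tested inhibitors of ADAM and matrix metalloproteases were higher. Timp4, also on the list, had too few counts to be tested and is named after its values were seen. It went the other way, with 8, 7 and 19 counts in WT and 0, 2 and 4 in the deletion. Timp3, the tissue inhibitor with the broadest action on ADAM proteases, had 51.2, 45.9 and 54.4 CPM in WT and 258, 227 and 238 CPM in the deletion, a log2 change of 2.26 ± 0.10 (SE, adjusted p = 6.69e-12). Timp2 rose by 2.50 and Reck, a membrane-anchored inhibitor, by 1.20. Timp1 rose by 4.85 ± 0.56 from 5 counts over the WT libraries to 222 over the deletion libraries. With Sertoli-level scaling Timp1 and Timp2 were still called higher (2.77 and 0.35), Timp3 was not (0.10) and Reck was lower (-0.96).

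Substrates of the sheddases were mostly higher. Among the EGF receptor ligands tested, 2 were higher, 1 lower and 2 did not pass, of 5. Tgfa, a classic Adam17 substrate, changed by -1.33 ± 0.41 (SE, adjusted p = 0.0069), a call lost with upper-quartile scaling (-0.79) and with no scaling factor (-0.69). Btc, shed by Adam10, and Nrg1, shed by several ADAMs, rose by 3.33 and 4.17 from 6 and 2 counts over the WT libraries to 91 and 60. With Sertoli-level scaling Nrg1 was still called higher (2.16), Btc was not (1.25), and 2 of the 5 ligands were lower. Their receptors were higher in 4 of 4 cases. Egfr had 5.27, 7.88 and 5.34 CPM in WT and 50.8, 46.9 and 53.4 CPM in the deletion, a log2 change of 3.01 ± 0.18 (adjusted p = 2.61e-10), and Erbb3, Erbb4 and Erbb2 rose by 3.25, 2.44 and 1.06. Egfr and Erbb3 alone of these 4 were still called higher with Sertoli-level scaling (0.88 and 1.09), and Erbb2 was lower (-1.09).

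Of 7 tested Notch receptors and ligands, 4 were higher, 1 lower and 2 did not pass. Notch2 rose by 1.79 and Notch1 by 2.66, from 7.91, 4.87 and 3.79 CPM to 33.96, 33.7 and 35.8 CPM, and Notch3 by 1.47. The ligand Jag1 changed by -0.93 ± 0.16 (SE, adjusted p = 4.51e-05), a call lost with no scaling factor (-0.29). With Sertoli-level scaling 0 of the 7 were higher, and Notch1, Notch2 and Notch3 were at 0.49, -0.37 and -0.67.

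Of 23 other proteins known to be shed, 22 were higher, and their median log2 change was 2.42. App, the amyloid precursor that Adam10 cuts, had 187, 199 and 182 CPM in WT and 926, 809 and 880 CPM in the deletion, a log2 change of 2.20 ± 0.09 (SE, adjusted p = 3.07e-12). Vcam1, Lrp1 and Sdc4 rose by 2.71, 2.51 and 2.48. With Sertoli-level scaling 9 of the 23 were higher and 4 lower, and App was at 0.05.

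**Figure D5:**
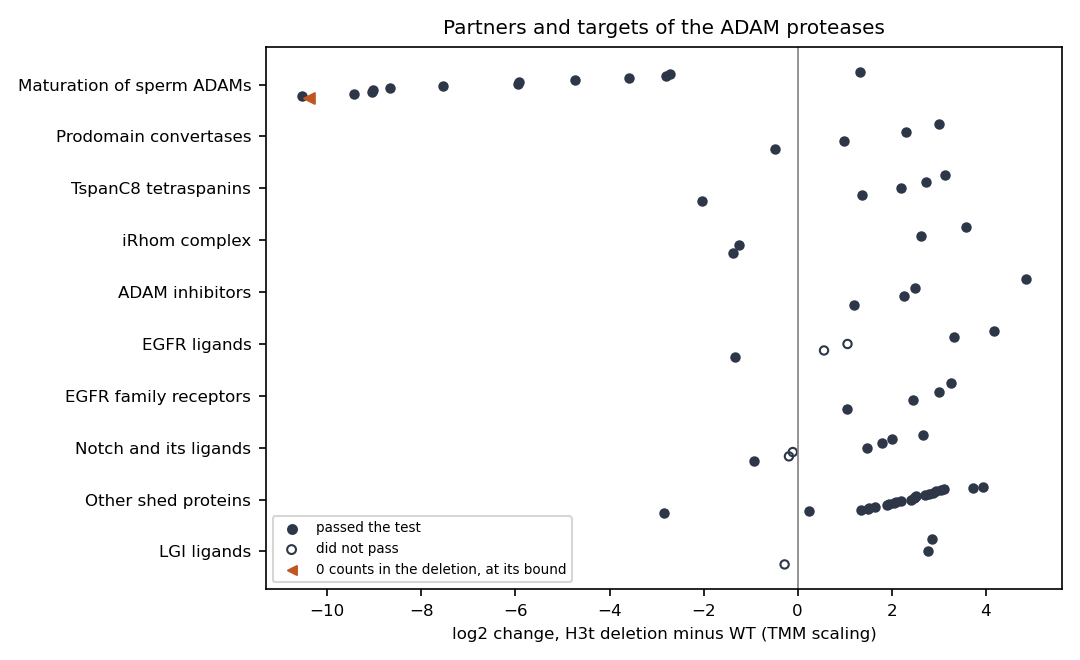
log2 change (H3t deletion minus WT, TMM scaling) of each tested gene that matures, escorts, inhibits or is cut by ADAM proteins, by role. Filled points passed the test, open points did not, and the triangle is Prss37 at its bound; 13 of the 14 maturation genes of sperm ADAMs lie below 0, and most genes of the other roles lie above it, which holds for fewer of them with Sertoli-level scaling.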

How the data were processed

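Testis RNA from 3 WT and 3 H3t deletion samples was made into libraries with SMART-Seq reagents that keep strand (per the labels). The authors deposited raw counts per Ensembl gene for the 6 libraries, and 0 columns were left unused. Trim Galore, HISAT2 and featureCounts with GRCm38 are named, per the submitters' processing notes, and the sources used here give no versions, strand setting or handling of reads with several matches.

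Counts were fitted over the whole table with edgeR 4.0.16 in R 4.3.3 (filterByExpr, TMM, glmQLFit and glmQLFTest, Benjamini-Hochberg over 17038 genes, called under 0.05). CPM values are TMM-scaled, and levels per kb use the exon length of GENCODE M21, in which all 54100 genes were found. The biological coefficient of variation was 13.1%. Alternatives were other scalings, DESeq2 1.42.0, limma 3.58.1 voom, other filters, an adjusted p of 0.01, a test against 1.5-fold and leaving out each library. The procedure was also run on simulated counts with few changed genes, a setting that cannot test the choice of scaling here. Where a group had 0 counts, a floor of 3 counts over the group was used. Promoters came from RefSeq, proteins were translated from GENCODE M21 and aligned with MAFFT 7.526. Within-group pairs of libraries differed by more than sampling noise (chi-square over its degrees of freedom, 4.48 to 6.88). Each sample title carries its own number, which the labels do not explain; if these do not mark separate animals, the p-values reflect technical spread.

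The members and gene lists were chosen with earlier results of these data known. Every analysed ADAM gene is accounted for by name or count, and of each other list up to 4 called genes with the highest mean CPM are named; those named outside this rule are marked so. The result of 1 list gene is not reported here.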

Additional observations from a re-analysis of the deposited data

How the results depend on the processing

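All 21 sperm ADAM genes were called lower under every scaling, tool, filter and threshold tried and without any single library. Their median log2 change was -11.50 with Sertoli-level scaling and -9.11 to -10.45 when libraries were left out, the last without deletion replicate 1. These medians include fitted values for the 5 genes at 0 counts, which are given singly only as bounds.

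Among the 11 somatic ADAM genes, the direction of most sheddases depended on the scaling. Adam23 was called higher and Adam11 and Adam22 lower under every scaling tried. Over the 11 genes, beside 9 higher and 2 lower, Sertoli-level scaling gave 1 and 5, and a median of -0.69 in place of 1.46. It was 2.001 with upper-quartile scaling and 2.10 with no scaling factor. Leaving out a library gave 8 or 9 higher, 2 lower and medians of 1.24 to 1.66. Reversed values with Sertoli-level scaling were Adam12 -0.18, Adam15 -1.56, Adam17 -1.23, Adam19 -0.69, Adam8 -0.73, Adam9 -0.32, Reck -0.96, Erbb2 -1.09, Notch2 -0.37, Notch3 -0.67, Tspan5 -0.80, Pcsk6 -1.14 and Tpst2 -0.81. Pcsk7 turned to 0.052 with upper-quartile scaling and to 0.15 with no scaling factor. The cause was not tested.

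Over all genes, 6542 were higher and 7861 lower, or 45.4% higher among the calls. The share was 55.1% with upper-quartile scaling, 56.6% with no scaling factor and 5.04% with Sertoli-level scaling (689 higher, 12980 lower). The median of all genes was 0.35, 0.45 and -2.34 under these, and -0.36 with median-of-ratios scaling. Without a library, 6356 to 6591 were higher and 7899 to 8287 lower. The sperm share of ADAM counts was 97.3% to 97.6% for WT and 1.55% to 2.98% for the deletion group without a library, and per kb it was 98.7% and 3.95%. The 3 ratios within a library, which were chosen after seeing the data, moved by less than their spread when a library was left out. No paired analysis was possible because the replicate numbers come from accession order and the numbers in the titles all differ.

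At these depths, 1 count was worth 0.0901 to 0.155 CPM, which limits the fold changes of the least abundant sperm ADAM genes.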
